A study of Mus musculus with 40 samples.

Results

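The transcripts of 3 effector cytokines were followed across the series: Ifng (assay Mm99999071_m1), Il12b (Mm01288989_m1) and Il13 (Mm00434204_m1), 3 of the 224 TaqMan assays of the deposited table. They were chosen by assay ID. The names are the vendor's gene names for these IDs, since the table itself lists IDs only. Colonic mucosa of mice was measured in 40 samples, 10 in each of 4 groups: mice colonised for 21 days by the single strain E. coli CEC, mice colonised for 21 days by the single strain E. coli Nissle (both labelled mono-associated), conventional (CV) mice with no colonisation time in the labels, and germ-free mice, labelled as the control. The labels give no mouse strain, sex, age or genotype. The design text speaks of RNA from the mice being pooled before the measurement, while 40 separate samples are listed, so p-values here reflect sample-to-sample spread, part or all of which could be technical.

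Interferon gamma, the product of Ifng, is made mainly by natural killer cells and by type 1 helper and cytotoxic T cells, and it activates macrophages. Il12b encodes the p40 subunit that IL-12 and IL-23 share, which dendritic cells and macrophages make after contact with microbes. IL-12 in turn drives lymphocytes to make interferon gamma. Il13 encodes a type 2 cytokine of helper T cells and innate lymphoid cells that acts on goblet cells and other epithelium in the gut. In the RefSeq annotation of build GRCm38.p6, Ifng lies on the plus strand at chr10:118441046-118445894, Il12b on the plus strand at chr11:44400063-44414677 and Il13 on the minus strand at chr11:53631323-53634702, and all are protein-coding genes. The sources used here do not give the exons that the assays read.

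The measured quantity was the threshold cycle (Ct), the PCR cycle at which the probe signal crosses a set level, so that 1 cycle less is about 2 times the template. A Ct of 40 marks an undetermined well, which can hold a low level or no transcript. Of the 224 assays, 203 had no undetermined well, 19 had some and 2 were undetermined in all 40 samples. To obtain log2 relative expression, the Ct of the assay was subtracted from the sample's median over those 203 assays, and it is given for measured samples alone. Because each assay has its own efficiency, levels are compared between samples of 1 assay and not between assays. The sample median Ct, which reflects the amount of template and the expression of the panel together, was 22.72 ± 0.838 cycles in CEC, 22.30 ± 0.488 in Nissle, 21.96 ± 0.288 in conventional and 22.47 ± 0.309 in germ-free samples (SD, n = 10 each). CEC replicates 6 and 8 had the highest medians of all samples, 23.79 and 24.27 cycles. Detection in CEC and the Il13 level in CEC are given without them too. In bulk mucosa, fewer cells of a type and less RNA per cell cannot be told apart.

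All 3 transcripts were scarce. Il12b was detected in 32 of 40 samples (80%, exact 95% binomial interval 64.4 to 90.9%), Ifng in 13 (32.5%, 18.6 to 49.1%) and Il13 in 9 (22.5%, 10.8 to 38.5%). For Ifng only 7 assays of the panel were detected in fewer samples, and for Il13 only 6. The measured wells were also late: Ct ran from 26.50 to 30.69 for Ifng, from 26.55 to 32.07 for Il12b and from 28.41 to 31.20 for Il13. The highest Ct measured for Il12b was the second highest of the 8399 measured values of the table that had not been filled in, below a single value of 36.67. Only 27 of those values, in 18 assays, lay above the highest Ct of Il13.

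**Figure D1:**
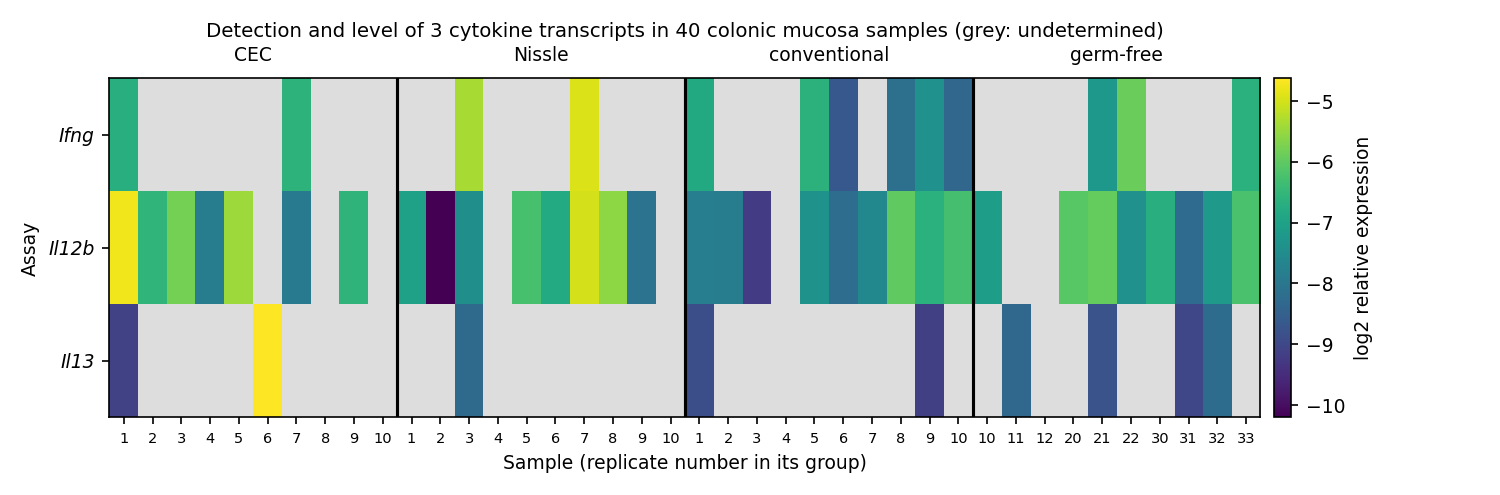
Detection and level of Ifng, Il12b and Il13 (rows) in each of the 40 samples (columns, grouped as CEC, Nissle, conventional and germ-free, with replicate numbers below). Colour gives log2 relative expression and grey an undetermined well; colours are to be compared along a row. Il12b is coloured in 32 columns, Ifng in 13 and Il13 in 9.

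Ifng was detected most often in conventional mucosa. A Ct was measured in 2 of 10 CEC samples (20%, interval 2.52 to 55.6%), 2 of 10 Nissle samples (20%, 2.52 to 55.6%), 6 of 10 conventional samples (60%, 26.2 to 87.8%) and 3 of 10 germ-free samples (30%, 6.67 to 65.2%). With Ct above 30 counted as undetermined, the count was 5 of 10 in conventional samples and unchanged in the other groups. Without CEC replicates 6 and 8, Ifng was detected in 2 of 8 CEC samples. The difference of CEC from conventional was then -35.0 percentage points in place of -40.0. Conventional samples also had the lowest mean of the sample median Ct, 21.96 cycles. The part of template amount in Ifng detection was not tested. The differences in Ifng detection between groups did not pass the test. Over the 4 groups Fisher's exact test gave p = 0.215, or 0.538 after Benjamini-Hochberg adjustment over the 21 assays with an undetermined well. None of these 21 passed the adjusted threshold of 0.05 (0.0%), and 4 had an unadjusted p under 0.05. Among the 21 are the 2 assays undetermined in every sample, which could not pass here or in any pair of groups. In pairs of groups, Fisher's exact test called 0 of 18 to 21 assays, 0.0% in each of the 6 comparisons. At an unadjusted p under 0.05 there was 1 assay each in conventional against germ-free, CEC against Nissle and CEC against conventional, and 0 in the other comparisons. Conventional against germ-free gave an odds ratio of 3.27 (95% interval 0.406 to 33.3, two-sided Fisher's exact p = 0.370, adjusted 1). Each mono-associated group against conventional gave an odds ratio of 0.184 (0.0125 to 1.66, exact p = 0.170), with an adjusted p of 0.679 for CEC and 0.842 for Nissle. Each of them against germ-free gave 0.599 (0.0391 to 6.94, exact p = 1), and CEC and Nissle had equal counts (odds ratio 1, 0.0586 to 17.1). Beside 3 of 10 germ-free samples, a group would have needed 9 detected samples for an unadjusted p under 0.05, so a difference of the size seen was not detectable with 10 samples a group.

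The order of the groups was different for the Ifng level in the samples where it was measured. The 2 CEC samples, replicates 1 and 7, had -6.69 and -6.60 log2 units. The 2 Nissle samples, replicates 3 and 7, had -5.36 and -4.93. Among conventional samples, replicates 1, 5, 6, 8, 9 and 10 had -6.81, -6.61, -8.66, -8.15, -7.38 and -8.36. In germ-free mucosa replicates 21, 22 and 33 had -7.23, -5.89 and -6.64. The 2 Nissle samples lay above all 11 others, and 4 of the 6 conventional samples lay below every sample of the other groups. The means were -6.65 ± 0.0661 in CEC (SD, n = 2), -5.15 ± 0.306 in Nissle (n = 2), -7.66 ± 0.853 in conventional (n = 6) and -6.59 ± 0.672 in germ-free samples (n = 3).

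None of the 6 differences in the measured Ifng level passed an exact permutation test, most of which could not have reached 0.05. Conventional minus germ-free was -1.08 log2 units (two-sided exact permutation p = 0.119, with 0.0238 as the smallest p possible). Nissle minus conventional was 2.52, with the 2 Nissle samples above all 6 conventional ones, and its exact permutation p of 0.0714 was the smallest that this design allows. The other 4 differences were CEC minus conventional at 1.02 (exact p = 0.143), Nissle minus germ-free at 1.44 (exact p = 0.2), CEC minus germ-free at -0.06 (exact p = 1) and CEC minus Nissle at -1.50 (exact p = 0.333). These p-values are unadjusted, and a mean over measured samples leaves out the undetermined ones, which stand for low or absent template. In another setting, undetermined wells were placed 1 cycle above the highest measured Ct of the whole table, 36.67, while the highest Ifng Ct was 30.69. The signs of both leading differences then turned: conventional minus germ-free was 1.72 (limma, adjusted p = 0.561) and Nissle minus conventional was -2.43 (adjusted p = 0.301).

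**Figure D2:**
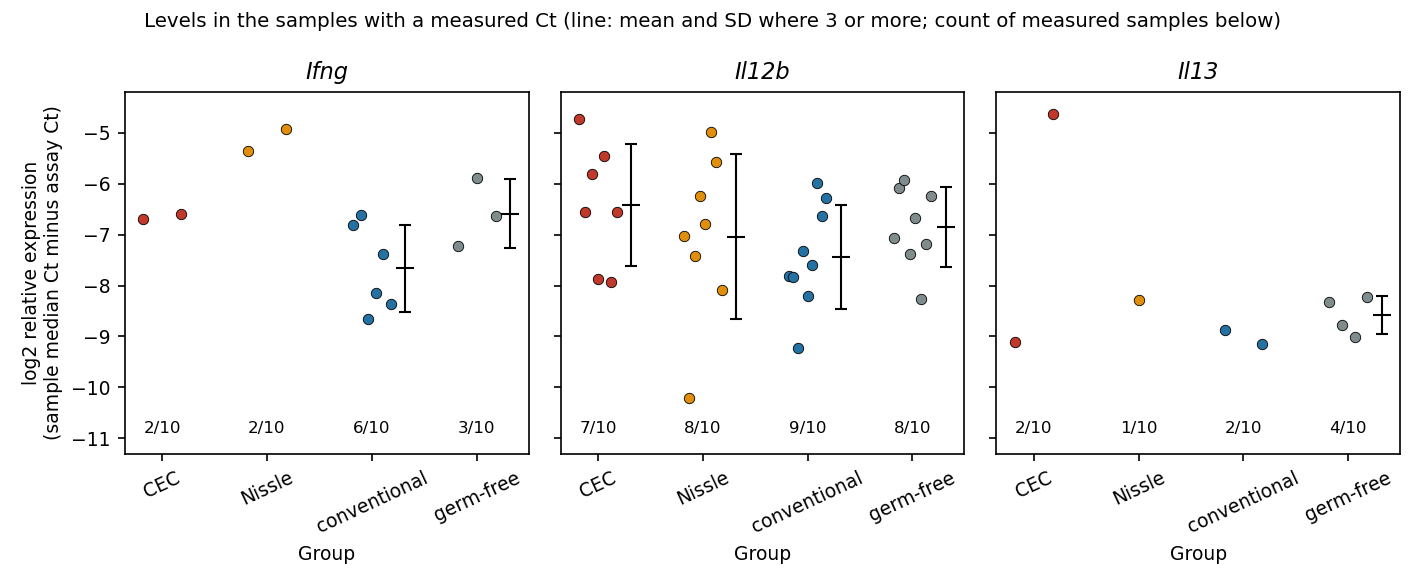
Log2 relative expression (sample median Ct minus assay Ct) of Ifng, Il12b and Il13 by group. Points are samples with a measured Ct, horizontal lines with bars are mean and SD where 3 or more samples were measured, and the counts below give measured samples of 10; the 2 Nissle points for Ifng, at -5.36 and -4.93, lie above every other Ifng point, and the CEC point at -4.63 stands alone for Il13.

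Il12b, the subunit gene upstream of interferon gamma, had a measured Ct in at least 7 of 10 samples of every group. It was measured in 7 of 10 CEC (70%, interval 34.8 to 93.3%), 8 of 10 Nissle (80%, 44.4 to 97.5%), 9 of 10 conventional (90%, 55.5 to 99.7%) and 8 of 10 germ-free samples (80%, 44.4 to 97.5%). With Ct above 30 counted as undetermined, the counts were 5 of 10 in CEC, 5 of 10 in Nissle, 6 of 10 in conventional and 7 of 10 in germ-free samples. Fisher's exact test over the 4 groups gave p = 0.947 (adjusted 1) for all measured wells. Its widest difference, CEC against conventional, had an odds ratio of 0.277 (95% interval 0.00446 to 4.35, exact p = 0.582, adjusted 1). Of the 3 CEC samples without Il12b, replicates 6 and 8 were those with the highest sample medians, while replicate 10 had a median of 22.16. A late median did not always go with an undetermined well: CEC replicate 3, with the next highest median of 23.61, had an Il12b Ct of 29.41. Without replicates 6 and 8, Il12b was detected in 7 of 8 CEC samples, 7.50 percentage points above germ-free in place of 10 points below it. The difference of CEC from conventional was then -2.5 points in place of -20.0.

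The Il12b level overlapped between all groups. The lowest, median and highest log2 values were -7.94, -6.56 and -4.74 in CEC, -10.20, -6.91 and -4.99 in Nissle, -9.23, -7.60 and -5.99 in conventional, and -8.26, -6.87 and -5.94 in germ-free samples. CEC replicate 1 and Nissle replicate 7 were the highest of all, and Nissle replicate 2 the lowest. The range within Nissle alone covered 37.2-fold, against 5.0-fold within germ-free samples. The means were -6.42 ± 1.20 in 7 CEC, -7.04 ± 1.62 in 8 Nissle, -7.44 ± 1.02 in 9 conventional and -6.85 ± 0.781 in 8 germ-free samples (SD). Pooled over groups, the SD within a group was 1.19, against a median of 0.596 over the 213 assays with at least 5 measured samples in every group, and 31 of them varied more.

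Il12b was the only one of the 3 assays with the 5 measured samples a group that the limma test required, and it passed in none of the 6 comparisons. CEC minus germ-free was 0.44 log2 units (standard error 0.593, 95% interval -0.77 to 1.65, adjusted p = 0.678), in a comparison in which 8.45% of 213 tested assays passed. Nissle minus germ-free was -0.19 (standard error 0.572, interval -1.36 to 0.98, limma adjusted p = 0.873; 6.51% of 215 passed). Conventional minus germ-free was -0.58 (0.556, -1.72 to 0.55, limma adjusted p = 0.534; 17.8% of 214 passed). In folds, these intervals ran from 0.585 to 3.13 for CEC, from 0.390 to 1.97 for Nissle and from 0.304 to 1.47 for conventional over germ-free. These samples do not tell apart changes within those bounds. Without normalization, conventional minus germ-free was only -0.072 and Nissle minus germ-free -0.047, while CEC minus germ-free was 0.43. Single samples also moved the differences from germ-free. CEC minus germ-free was 0.16 without CEC replicate 1, 0.24 without germ-free replicate 31 and 0.69 without CEC replicate 7, the lowest and highest being the ends of its range. Nissle minus germ-free ranged from -0.48 without Nissle replicate 7 to 0.26 without Nissle replicate 2, and conventional minus germ-free from -0.78 without germ-free replicate 31 to -0.36 without conventional replicate 3. The number of assays that passed also rested on single samples. For conventional against germ-free, 38 assays passed, against 15, 18, 24 and 25 without conventional replicates 10, 9, 1 and 3, and 22 and 20 without germ-free replicates 11 and 20. For CEC against germ-free it was 18, against 28 and 30 without CEC replicates 8 and 9, and for Nissle against germ-free 14, against 24 without CEC replicate 6, a sample of neither group that is in the same fit.

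**Figure D3:**
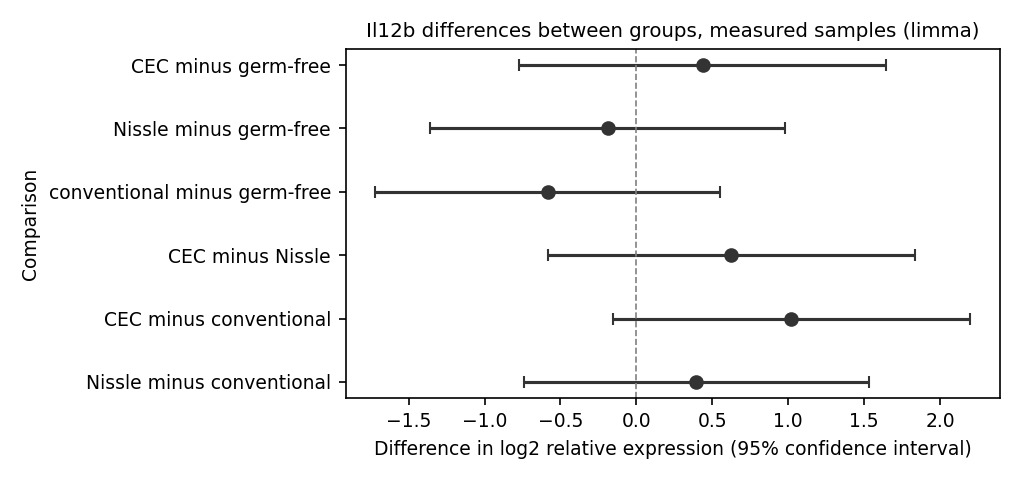
Differences in Il12b log2 relative expression between groups (x axis) for the 6 comparisons (y axis), from limma over measured samples. Points are differences and bars 95% confidence intervals; every interval includes 0, and the largest difference is CEC minus conventional at 1.02.

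Among the colonised groups, CEC had the highest mean Il12b level, and no difference passed. CEC minus Nissle was 0.63 (standard error 0.593, interval -0.58 to 1.83, limma adjusted p = 0.599; 3.27% of 214 assays passed). It was 0.48 without normalization, 0.17 without Nissle replicate 2, 0.35 without CEC replicate 1 and 0.92 without Nissle replicate 7. The 7 assays behind that share were 2 to 4 on leaving out any 1 of 27 of the 40 samples. CEC minus conventional, at 1.02 or 2.03-fold, was the largest difference (standard error 0.577, interval -0.16 to 2.20, limma adjusted p = 0.198), in a comparison in which 25.7% of 214 assays passed. Nissle minus conventional was 0.39 (0.556, -0.74 to 1.53, limma adjusted p = 0.634; 26.0% of 215 passed). It was only 0.025 without normalization. Leaving out single samples, it was 0.10 without Nissle replicate 7, 0.17 without conventional replicate 3 and 0.85 without Nissle replicate 2. In these last 2 comparisons no single sample moved the number of passing assays by over 1.5 times. The size of CEC minus conventional depended on the setting, and it passed in none. It was 1.63 with the replicate number as a block (limma, adjusted p = 0.081), 1.12 with Ct above 30 as undetermined (0.0543) and 0.50 without normalization (0.542), and 0.74 to 1.27 on leaving out single samples. It was -0.55 with undetermined wells set 1 cycle above the highest Ct of the whole table, 36.67 (limma, adjusted p = 0.849). In that setting the 3 undetermined CEC samples weigh against 1 conventional sample.

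Across the 32 samples with Il12b, the Il12b Ct and the sample median Ct had a correlation that did not pass the test (Pearson r = 0.288, permutation p = 0.110; Spearman rho = 0.310, permutation p = 0.0851; 0.220 for both after adjustment over the 4 coefficients of 2 relations). Without the 2 samples farthest from the middle of the sample medians r was 0.235. Within groups r was 0.438 in 7 CEC, 0.338 in 8 Nissle, 0.589 in 9 conventional and 0.208 in 8 germ-free samples. The part of template amount in the group differences was not tested.

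**Figure D4:**
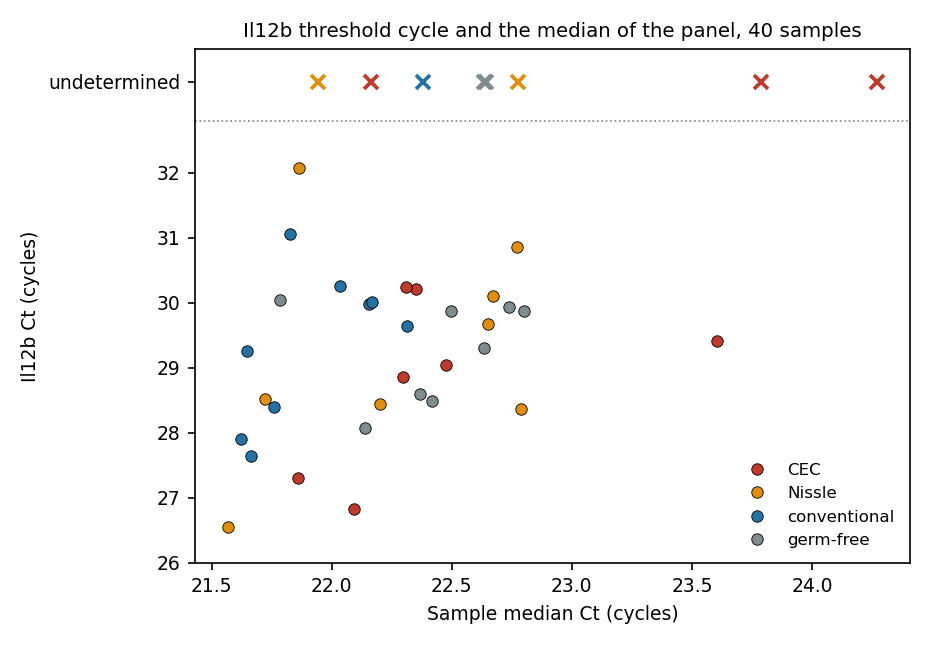
Ct of Il12b (y axis, cycles) against the sample median Ct (x axis, cycles) for the 40 samples, coloured by group. Crosses at the top are the 8 samples with an undetermined Il12b well; the 2 at the right are CEC replicates 6 and 8, with medians of 23.79 and 24.27.

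Il13, the type 2 cytokine, was detected in the fewest samples of the 3, and the group in which it was detected most often depended on the latest wells counted. It was measured in 2 of 10 CEC (20%, interval 2.52 to 55.6%), 1 of 10 Nissle (10%, 0.253 to 44.5%), 2 of 10 conventional (20%, 2.52 to 55.6%) and 4 of 10 germ-free samples (40%, 12.2 to 73.8%). The differences did not pass (Fisher's exact test over the 4 groups, p = 0.556, adjusted 0.833). Nissle against germ-free had an odds ratio of 0.182 (95% interval 0.00306 to 2.45, exact p = 0.303, adjusted 1), and CEC and conventional against germ-free had 0.394 each (0.0269 to 3.89, exact p = 0.628, adjusted 1). Without CEC replicates 6 and 8, Il13 was detected in 1 of 8 CEC samples. CEC minus germ-free was then -27.5 percentage points in place of -20.0. The order of the groups rests on wells with a Ct above 30. With these counted as undetermined, Il13 was detected in 1 of 10 CEC samples and in 0 of 10 Nissle, 0 of 10 conventional and 0 of 10 germ-free samples.

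**Figure D5:**
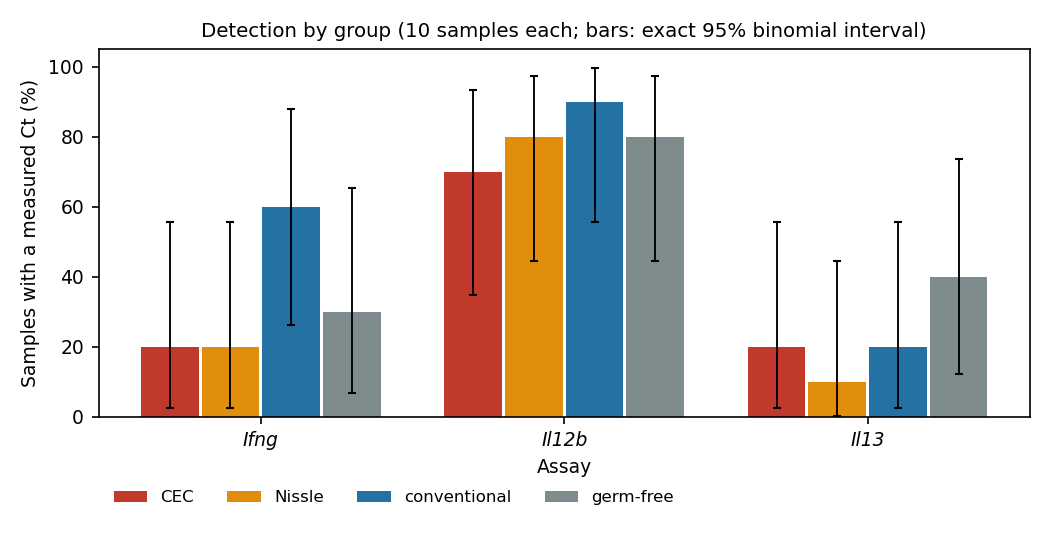
Share of samples with a measured Ct (y axis, %) for Ifng, Il12b and Il13 (x axis) in CEC, Nissle, conventional and germ-free samples, 10 each. Error bars are exact 95% binomial intervals; Ifng is highest in conventional (60%) and Il13 in germ-free samples (40%), and the intervals overlap.

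Where Il13 was measured, its Ct was nearly the same in all samples but 1. CEC replicate 1 had a Ct of 31.20, Nissle replicate 3 had 30.95, conventional replicates 1 and 9 had 31.02 and 30.91, and germ-free replicates 11, 21, 31 and 32 had 30.96, 30.91, 30.79 and 30.97. These 8 values spanned 0.404 cycles. They lay near the latest Ct of the table, with only 27 of the 8399 measured values that had not been filled in above the highest of them. Since Il13 was undetermined in 31 samples, the narrow span does not show an even level across samples. CEC replicate 6 stood apart at 28.41, 2.38 cycles below the lowest of the others, in a sample in which neither Ifng nor Il12b was detected and 13 wells of other assays were undetermined.

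On the relative scale, CEC replicate 6 had an Il13 level of -4.63, CEC replicate 1 had -9.10 and the Nissle sample -8.28. The conventional samples had -8.87 and -9.15, and the 4 germ-free samples -8.32, -8.77, -9.01 and -8.23. The mean was thus -6.87 ± 3.16 in CEC (SD, n = 2), -9.01 ± 0.195 in conventional (SD, n = 2) and -8.58 ± 0.368 in germ-free samples (SD, n = 4). CEC minus germ-free was 1.72 with replicate 6 (exact permutation p = 0.667, smallest possible 0.133) and -0.52 without it. Conventional minus germ-free was -0.43 (exact permutation p = 0.267, smallest possible 0.133), but only -0.058 without normalization. Nissle, with a single measured sample, allows no test of its level.

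Detection of 1 transcript beside another was counted and not tested. All 13 samples with Ifng also had Il12b, while 19 of the 27 samples without Ifng had it. Il12b was found in 7 of the 9 samples with Il13 and in 25 of the 31 without it. The 2 samples with Il13 and no Il12b were CEC replicate 6 and germ-free replicate 11. All 3 transcripts were measured in 5 samples: CEC replicate 1, Nissle replicate 3, conventional replicates 1 and 9, and germ-free replicate 21. None was measured in 6 samples: CEC replicates 8 and 10, Nissle replicates 4 and 10, conventional replicate 4 and germ-free replicate 12. The sample median Ct lay between 21.76 and 22.67 in the 5 samples and between 21.94 and 24.27 in the 6, and the part of template amount in this pattern was not tested.

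In the 13 samples that had both, the Ifng and Il12b levels, which share the sample's normalizer, showed no clear relation (Pearson r = 0.157, permutation p = 0.607, adjusted 0.809; Spearman rho = 0.0385, permutation p = 0.907, adjusted 0.907). In the 6 conventional samples r was -0.195, and without the 2 samples farthest from the middle of the Ifng levels, which leaves 11 of the 13, it was -0.435. Among 214 assays measured together with Il12b in at least 20 samples, whose median Spearman rho with it was 0.120, the most alike were Mm00434774_g1 (rho = 0.549 over 32 samples) and Mm00839967_g1 (rho = 0.482 over 25 samples). Within groups, rho with Mm00434774_g1 was 0.321 in CEC, 0.333 in Nissle, 0.450 in conventional and 0.762 in germ-free samples. These assays share the sample's normalizer with Il12b and are not paired with genes in the sources used here. Ifng and Il13 were measured in too few samples for such a ranking.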

How the data were processed

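RNA of colonic mucosa was measured on a customized TaqMan OpenArray, per the labels' protocols. The deposited table holds raw Ct for 224 assays in 40 samples, per the file headers, which call it a truncated example. Groups and replicate numbers come from the labels. Neither the threshold setting nor any quality filter is stated in the sources used here. The table held 405 undetermined wells (4.52%) and 156 values, in 51 assays, that equalled the mean of their group's other values (153) or of all but 1 of them (3, told by more than 6 decimals) within 2e-06 cycles. Such filled-in values were left missing in the tests and kept in the normalizer; none belonged to the 3 assays described. Detection was compared by Fisher's exact test, adjusted over all assays with an undetermined well in the comparison. Levels were compared with limma 3.58.1 in R 4.3.3, in 1 fit over the 4 groups, for assays with at least 5 measured samples in both groups, with Benjamini-Hochberg adjustment over all assays tested and a threshold of 0.05. Measured levels of Ifng and Il13 were compared by exact permutation (scipy 1.17.1), and correlations by 100000 permutations. The steps were tested on simulated data. The rule for named assays took the 3 assays and the 2 most alike to each. Assays and lists were chosen with earlier results of these data known. The planned gene lists and tissue markers could not be matched, because no source used here pairs the other assays with genes, so the labelled tissue was not checked.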

Additional observations from a re-analysis of the deposited data

How the results depend on the processing

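No comparison of Ifng, Il12b or Il13 passed the threshold in detection or level, as measured or under any alternative with a test; the lowest adjusted p was 0.0543, for Il12b in CEC against conventional with Ct above 30 as undetermined. The cause of each turn in sign below was not tested. With undetermined wells 1 cycle above the highest Ct, the sign turned for Il12b in CEC minus germ-free (-0.28), conventional minus germ-free (0.27), CEC minus Nissle (-0.075), CEC minus conventional (-0.55) and Nissle minus conventional (-0.47). It also turned for Ifng in Nissle minus germ-free (-0.71), conventional minus germ-free (1.72), CEC minus Nissle (0.11), CEC minus conventional (-2.32) and Nissle minus conventional (-2.43), and for Il13 in CEC minus germ-free (-0.88), Nissle minus germ-free (-2.20) and Nissle minus conventional (-0.33). With Ct above 30 as undetermined, Il12b in Nissle minus germ-free was 0.53, its detection was -10.0 points in conventional minus germ-free, and Il13 detection in CEC was 10.0 points above germ-free. Without CEC replicates 6 and 8 (chosen after seeing the data), Il12b detection in CEC was 7.50 points above both germ-free and Nissle. The Il13 difference without these samples was -0.52 for CEC minus germ-free, -0.82 for CEC minus Nissle and -0.095 for CEC minus conventional. Leaving out single samples gave -0.52 to 3.96, -0.82 to 3.65 and -0.095 to 4.38 for these, with the low ends without CEC replicate 6. For Il12b it gave -0.48 to 0.26 in Nissle minus germ-free, and the other Il12b differences kept their sign.

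CEC, Nissle and conventional samples share replicate numbers 1 to 10. Of 10 same-numbered pairs each, the deviations from the group means correlated over 0.1 in 7 for CEC with conventional (median 0.201), 1 for CEC with Nissle (-0.06) and 3 for Nissle with conventional (-0.03). Pairs with unlike numbers were not compared, so whether the numbers pair samples, above all for CEC with conventional, was not settled. The main fit used no block. With the replicate block, Il12b was 1.09 for CEC minus Nissle, 1.63 for CEC minus conventional (adjusted p = 0.081) and 0.54 for Nissle minus conventional, and the block left 3 changed assays in place of 7 for CEC against Nissle. That count was 0 with only these groups fitted and 3 without CEC replicates 6 and 8. For CEC against germ-free 18 assays changed, 28 with filled-in values as deposited and 38 without these 2 samples. For Nissle against germ-free 14 changed, 7 without normalization and 32 without these 2 samples. Without normalization, 20 changed in place of 38 for conventional against germ-free and 21 in place of 56 for Nissle against conventional.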
